A study of Mus musculus with 27 samples.

Results

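The regulators of somite derivatives followed here are 10 transcription factor genes, chosen by name: Myf5, Myf6, Myod1 and Myog of skeletal muscle, Pax1, Pax9, Nkx3-2 and Foxc2 of the sclerotome, and Meox1 and Meox2 of the somite as a whole. All 10 are among the 24065 genes of the expression table. RNA-Seq was performed on whole mouse embryos collected at E8.5, 3 WT embryos and 3 Dnmt3b-/- littermates, all from C57BL/6 matings, with 1 library for each embryo. The Dnmt3b mutation had been obtained by crossing mice with a floxed Dnmt3b gene to an ACTB-Cre deleter line, whose Cre acts in all tissues, and it removes the catalytic activity of the enzyme DNMT3B. The embryos therefore lack this activity in every lineage, and a difference between the genotypes cannot be assigned to the somites. The sex and the number of somites of each embryo are not given in the sources used here. The 21 methylation libraries of the series were not analysed here.

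DNMT3B is a methyltransferase that places new methyl groups on DNA after implantation. Somites are blocks of mesoderm that form in pairs along the neural tube and then divide into the sclerotome, the source of vertebrae and ribs, and the dermomyotome, the source of dermis and skeletal muscle. Myf5, Myf6, Myod1 and Myog encode the myogenic regulatory factors, basic helix-loop-helix proteins that bind E-boxes in DNA. In the mouse Myf5 comes on before the other 3 genes in the earliest somites, whereas Myog acts later, when myoblasts differentiate. Signals from the notochord and floor plate switch on Pax1, Pax9 and Nkx3-2 in the sclerotome. At E8.5 an embryo has few somites and muscle formation has barely begun.

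The promoters of Myog, Myf5 and Meox2 are shown, chosen after the values were seen, because these genes had the largest positive differences between Dnmt3b-/- and WT embryos among the regulators. The sequences come from RefSeq (GRCm38.p6, the assembly also called mm10) and run from 250 bases before to 50 bases after a transcription start, 5′ to 3′ on the strand of the gene. Capitals mark each E-box (CANNTG), each TATAAA and each match to the MEF2 motif on either strand. The MEF2 pattern used was YTAWWWWTAR, with Y for C or T, W for A or T and R for A or G.
Myog, chr1:134289754-134290053, strand +: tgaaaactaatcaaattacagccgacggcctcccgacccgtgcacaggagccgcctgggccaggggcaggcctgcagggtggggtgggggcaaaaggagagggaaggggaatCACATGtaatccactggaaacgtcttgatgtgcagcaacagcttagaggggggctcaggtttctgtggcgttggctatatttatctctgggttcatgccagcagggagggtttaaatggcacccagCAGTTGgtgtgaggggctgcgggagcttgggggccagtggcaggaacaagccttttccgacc
Myf5, chr10:107486085-107486384, strand -: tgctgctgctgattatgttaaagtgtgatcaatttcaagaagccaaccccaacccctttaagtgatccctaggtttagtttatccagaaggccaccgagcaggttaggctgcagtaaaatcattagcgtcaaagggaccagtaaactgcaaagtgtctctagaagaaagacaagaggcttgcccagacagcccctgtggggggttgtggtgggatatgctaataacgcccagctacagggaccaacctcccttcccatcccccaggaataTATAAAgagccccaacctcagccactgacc
Meox2, chr12:37108290-37108589, strand +: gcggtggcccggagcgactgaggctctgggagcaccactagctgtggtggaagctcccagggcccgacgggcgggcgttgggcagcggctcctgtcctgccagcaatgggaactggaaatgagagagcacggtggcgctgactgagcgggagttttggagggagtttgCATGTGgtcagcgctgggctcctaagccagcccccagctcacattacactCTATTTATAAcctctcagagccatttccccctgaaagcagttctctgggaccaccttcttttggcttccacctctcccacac
The Myog window held 2 E-boxes, CACATG and CAGTTG, whose first bases lay at -138 and -12 from the start, and no TATAAA. It held no full match to the MEF2 pattern used, but its stretch CTATATTTAT departs from that pattern in the last base only. The Myf5 window held a single TATAAA at 21 bases after the start and no E-box. The Meox2 window held 1 E-box at -82 and 1 MEF2 match at -32, and the MEF2 match contains a TATAAA read on the opposite strand. Such matches are common for the E-box, which occurred in 72.3% of the 32851 mouse promoters of this length, and less so for TATAAA (13.6%) and MEF2 (3.2%). They describe these windows only and are not evidence of binding.

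The same windows differed in their density of CpG, the dinucleotide that DNMT3B methylates. The Myf5 window held 3 CpGs and the Myog window 9, with observed to expected ratios of 0.16 and 0.37. The median over all promoters was 7 CpGs and a ratio of 0.38. The windows of Pax9, Meox2, Pax1 and Nkx3-2 held 11, 12, 13 and 25 CpGs. Of the 6 members with a promoter sequence, only Myf5 had fewer CpGs than the median promoter. Myog lay near the median in both measures, with 54.2% of promoters holding fewer CpGs. The methylation of these CpGs was not analysed here, and the promoters of Myf6, Myod1, Meox1 and Foxc2 are not shown.

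Each library held between 41489332 and 58470286 counts on genes. At this depth a limit of 3 counts corresponds to at most 3.501 normalized counts, which are raw counts scaled with the TMM factors of edgeR to the mean library size. The limit covers counting error only. Dnmt3b itself, counted over the deleted and the remaining exons together, was at 7287, 14003 and 6301 normalized counts in WT embryos 1, 2 and 3 and at 4076, 4557 and 4756 in Dnmt3b-/- embryos 1, 2 and 3 (log2 fold change -1.04 ± 0.27 SE, adjusted p = 0.0169, edgeR). The genotypes did not overlap in this gene. The log2 fold change of Dnmt3b was -0.61 without WT embryo 2, and its adjusted p rose to at most 0.0613 when any 1 of the Dnmt3b-/- embryos was left out.

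WT embryo 2 stood apart from the other embryos in the summed markers of stage and of neighbouring tissues. Its summed level of 10 late Hox genes, which come on as the axis lengthens, was 31.5 FPKM (fragments per kilobase of exon, scaled for library size) against 43.4 to 63.5 FPKM in the other 5 embryos. Its 5 markers of yolk sac endoderm summed to 898 FPKM against 89.5 to 327 FPKM in the others, and its 5 markers of primitive blood to 395 FPKM against 497 to 2237 FPKM. The genes within the Hox and blood lists were mixed. Hoxb9 and Hoxa9, the most abundant of the Hox list, were lowest in WT embryo 2 (16.8 and 5.62 FPKM). Hoxa10 and Hoxa11 were instead higher there (1.52 and 1.13 FPKM) than in the other WT embryos. Gata1 of the blood list (1.91 FPKM) exceeded WT embryo 1 and all Dnmt3b-/- embryos. Over the 15114 genes tested it correlated with the other WT embryos at an r of 0.979 and 0.970, compared with 0.992 between WT embryos 1 and 3 and 0.967 to 0.980 among Dnmt3b-/- embryos. WT embryo 2 had the lowest normalized count of all 6 embryos for 5 of the 6 regulators tested, and for 20.7% of all genes tested. Dnmt3b-/- embryo 3 stood apart as well, being the lowest of the 6 embryos for 28.9% and the highest for 27% of the genes tested but for 0 regulators the lowest, and its r with the WT embryos was the lowest of the Dnmt3b-/- embryos at 0.937 to 0.948. It had the highest late Hox sum and the lowest yolk sac sum. For several genes and lists values without 1 of the embryos are given as well. The part of stage or of yolk sac in the values was not tested.

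**Figure D1:**
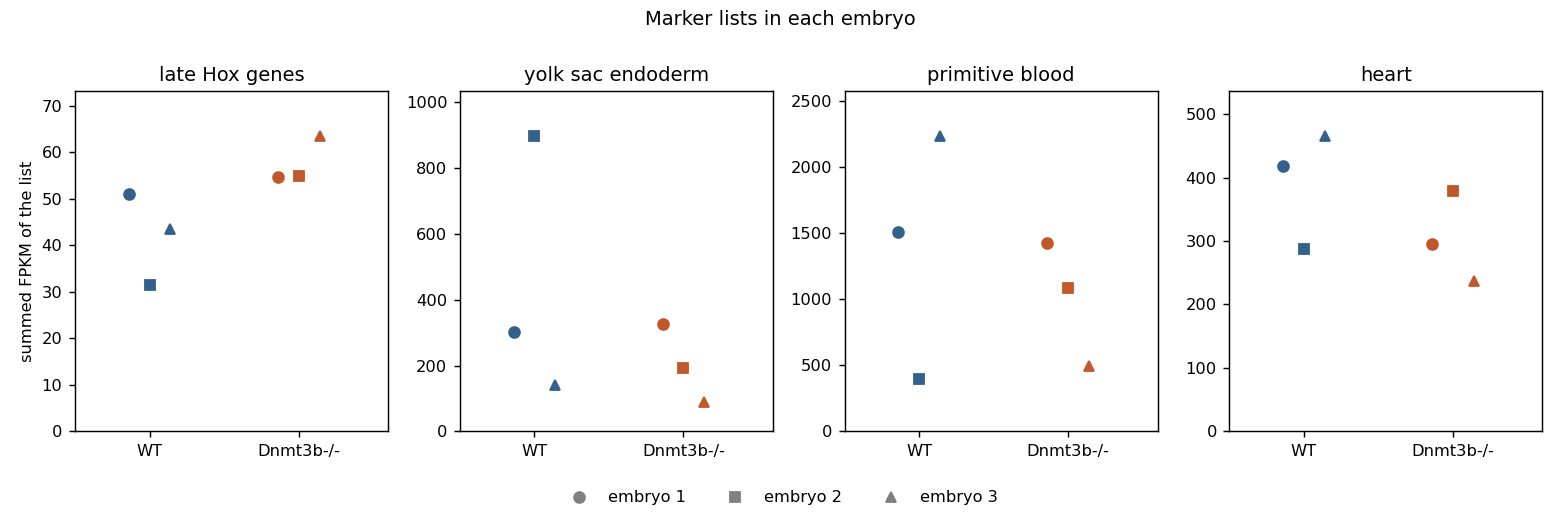
Summed level of 4 marker lists in each embryo (y axis, FPKM summed over the list; x axis, genotype; one symbol per embryo). WT embryo 2 had the lowest late Hox sum (31.5 FPKM) and the highest yolk sac endoderm sum (898 FPKM), and the heart sum ranged from 237 FPKM in Dnmt3b-/- embryo 3 to 466 FPKM in WT embryo 3.

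The 10 regulators covered about 3 orders of expression level in WT embryos. Meox1 was the most abundant at 23.4 ± 4.8 FPKM (SD, n = 3) and Foxc2 the next at 11.1 ± 1.9 FPKM, and 87.2% and 77.7% of 23901 genes lay below them. Meox2 followed at 1.33 ± 0.76 FPKM, Pax9 at 0.742 ± 0.208 FPKM, Myf5 at 0.493 ± 0.258 FPKM and Pax1 at 0.402 ± 0.264 FPKM, around or under the median gene at 0.796 FPKM. Nkx3-2, Myod1, Myf6 and Myog lay at 0.0807, 0.0629, 0.0542 and 0.0195 FPKM. The ranges of the WT embryos separated Meox1 from Foxc2 and Foxc2 from Meox2, whereas from Meox2 down each gene overlapped the next in order. In Dnmt3b-/- embryos Meox1 (24.2 ± 2.2 FPKM), Foxc2 (10.46 ± 0.38 FPKM) and Meox2 (2.14 ± 0.30 FPKM) kept the same first places, and Myog, last in WT embryos, came seventh at 0.194 ± 0.059 FPKM. Since whole embryos were used, fewer somite cells and less RNA per somite cell cannot be told apart in any of these values.

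None of the regulators was called different between the genotypes. Of the 10 genes, 6 reached the mean of 10 counts set for the test, and 0 were higher and 0 lower in Dnmt3b-/- embryos at an adjusted p below 0.05 (quasi-likelihood test of edgeR, Benjamini-Hochberg adjustment over all genes tested). By comparison, 35.7% of the 15114 genes tested were called, 17.6% higher and 18.1% lower. No regulator had an unadjusted p below 0.05, and DESeq2 and limma also called 0 of the 6. The median log2 fold change of the 6 genes was 0.24, beside -0.029 over all genes tested, and 5 of the 6 values were positive. Without WT embryo 2 this median was 0.08. With 3 embryos per genotype the 95% intervals stayed wide for the less abundant genes, and changes inside them are not excluded.

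**Figure D2:**
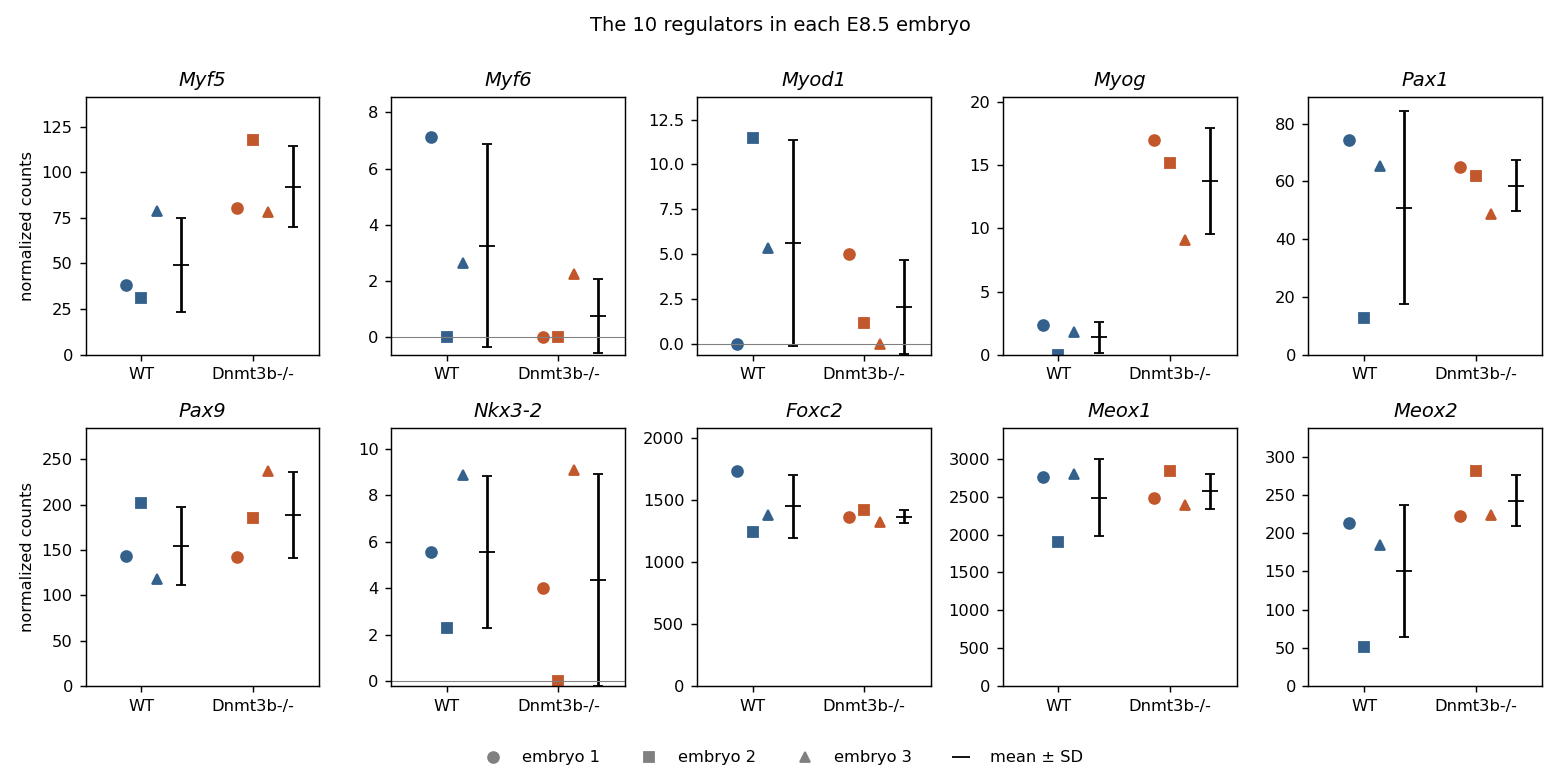
Normalized counts of the 10 regulators in each embryo (y axis, one scale per gene; x axis, genotype; one symbol per embryo, bars for the mean ± SD of 3 embryos). Myog and Meox2 are the genes whose Dnmt3b-/- embryos all lie above the WT embryos, with WT embryo 2 far below the others for Meox2 and Pax1.

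Myf5, which marks the first muscle precursors, had the largest difference among the regulators tested. It lay at 38.0, 31.0 and 78.8 normalized counts in WT embryos 1, 2 and 3 and at 80.2, 118 and 78.2 in Dnmt3b-/- embryos 1, 2 and 3. WT embryo 3 was as high as Dnmt3b-/- embryos 1 and 3, so that the genotypes overlapped. The mean was 49.3 ± 25.8 in WT and 92.1 ± 22.4 in Dnmt3b-/- embryos (SD over 3 embryos each). The log2 fold change was 0.89 with a 95% interval from -0.05 to 1.84 (adjusted p = 0.127, edgeR). Without WT embryo 3 the log2 fold change was 1.41 and passed the threshold (adjusted p = 0.0385, edgeR). It was between 0.66 and 1.02 without any of the other embryos and 0.48 after correction for GC content and length, and did not pass.

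Myog, the factor of myoblast differentiation, was nearly silent in WT embryos. Its raw counts were 3, 0 and 2 in WT embryos and 17, 13 and 8 in Dnmt3b-/- embryos, in total 5 (95% Poisson interval 1.62 to 11.7, counting error only) against 38 (26.9 to 52.2). No WT embryo exceeded 3 counts, the limit set here, and every Dnmt3b-/- embryo did. Scaled, the Dnmt3b-/- embryos had 13.8 ± 4.2 normalized counts (SD, n = 3), which was 4.87 times a WT mean set to 3 counts in each library. This ratio leaves out counting error and the spread between embryos, and is not a lower bound. The gene did not reach the mean of 10 counts, and an exact two-sided permutation test gave p = 0.1, the smallest that 3 against 3 embryos allow. Without a filter on low counts, edgeR gave Myog an adjusted p of 0.0477. This call was lost without any embryo except Dnmt3b-/- embryo 3 (adjusted p from 0.0907 to 0.136 in the other 5 fits), and with total counts as scaling (adjusted p = 0.0532, edgeR). It was also lost with the replicate number as a block (0.145). The call was kept with DESeq2 size factors (0.0459) and with the GC and length correction above a mean of 1 count (0.0465). A filter at a mean of 5 counts kept it too (0.0286, all edgeR). These other settings were chosen after the data were seen.

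Myf6 and Myod1, which act in muscle determination and differentiation beside Myf5, were at the edge of detection in both genotypes. Myf6 had raw counts of 9, 0 and 3 in WT embryos and 0, 0 and 2 in Dnmt3b-/- embryos. Myod1 had 0, 10 and 6 in WT embryos and 5, 1 and 0 in Dnmt3b-/- embryos. The genotypes overlapped for each gene, and neither was tested. Beside the 17, 13 and 8 counts of Myog in Dnmt3b-/- embryos 1, 2 and 3 stood 5, 1 and 0 counts of Myod1, too few to compare. Myf5 and Myf6 lie next to each other on chromosome 10 (107482908 to 107486927 and 107492848 to 107494723 of mm10, both on the minus strand), and 9 of the 14 counts of Myf6 came from WT embryo 1.

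Among the sclerotome factors, Pax1 and Pax9 encode related paired-box proteins and act together in forming vertebral bodies. Pax1 lay at 74.5, 12.6 and 65.5 normalized counts in WT embryos and at 65.1, 61.9 and 48.7 in Dnmt3b-/- embryos. WT embryo 2 was the lowest of all, and the Dnmt3b-/- embryos lay between it and the other WT embryos. The log2 fold change of 0.19 (95% interval -1.11 to 1.49, adjusted p = 0.82, edgeR) turned to -0.26 without WT embryo 2 and was 0.63 after correction for GC content and length, neither past the threshold. Pax9 lay at 143, 202 and 118 normalized counts in WT embryos and at 142, 186 and 237 in Dnmt3b-/- embryos, again with overlap (log2 fold change 0.29, 95% interval -0.36 to 0.94, adjusted p = 0.465, edgeR). Here WT embryo 2 was the highest of its group, and the log2 fold change was 0.52 without it, 0.10 without Dnmt3b-/- embryo 3 and 0.13 after the same correction, with no call. The ratio of Pax9 to Pax1 within an embryo was accordingly 9.74 in WT embryo 2 and between 1.09 and 2.96 in the other 5 embryos. Exons of Pax9 share 189 bases with Slc25a21 on the opposite strand, and since the strand setting of the counting is not stated, reads of these bases could belong to either gene. For Pax1, 111 of 4415 stretches of 75 bases in GENCODE transcripts were shared with AI646519 on the opposite strand. The curated RefSeq exons of Pax1 and AI646519 shared no bases. Pax9 is also expressed in the pharyngeal endoderm, whose marker list had sums of 10.4 to 16.1 FPKM in WT and 13.8 to 17.5 FPKM in Dnmt3b-/- embryos, and its part in the Pax9 values was not tested.

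Nkx3-2, a target of hedgehog signalling that acts after Pax1 and Pax9 in cartilage formation, was barely detected. It had raw counts of 7, 2 and 10 in WT embryos and 4, 0 and 8 in Dnmt3b-/- embryos, with overlap and no test.

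Foxc2, a forkhead factor of the paraxial mesoderm and sclerotome, differed little between the genotypes. It lay at 1735, 1244 and 1379 normalized counts in WT embryos and at 1364, 1420 and 1322 in Dnmt3b-/- embryos. The Dnmt3b-/- embryos fell within the range of the WT embryos. The log2 fold change was -0.09 with a 95% interval from -0.39 to 0.22 (adjusted p = 0.646, edgeR), that is a fold of 0.763 to 1.16. Foxc2 is a gene of 1 exon with a GC content of 62.0%, and its value moved under a joint correction for GC content and length. After removal of a trend with both from each library, the log2 fold change was 0.60 (adjusted p = 0.0124, edgeR).

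**Figure D3:**
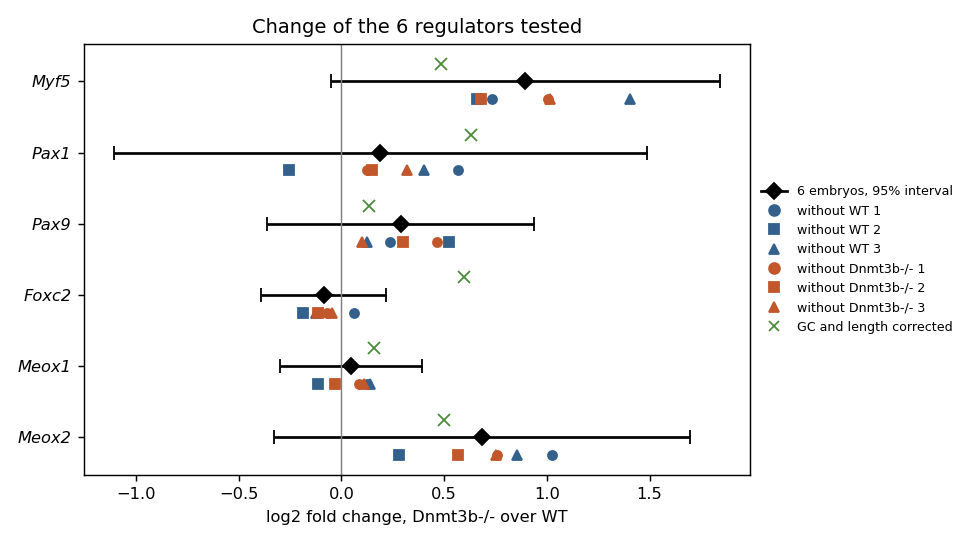
Log2 fold change of the 6 regulators tested (x axis, Dnmt3b-/- over WT; y axis, gene). Diamonds and bars give the value over 6 embryos with its 95% interval, small symbols the values without 1 embryo each, and crosses the value after correction for GC content and length, which moved Foxc2 from -0.09 to 0.60.

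Foxc1, the closest relative of Foxc2 and active with it in making somites, offers a comparison within each embryo. Foxc1 rose from 3694, 2750 and 3220 normalized counts in WT embryos to 4437, 4735 and 4866 in Dnmt3b-/- embryos (log2 fold change 0.54, standard error 0.11, adjusted p = 0.00578, edgeR). The ratio of Foxc2 to Foxc1 in FPKM was 0.688, 0.662 and 0.627 in WT embryos and 0.450, 0.439 and 0.398 in Dnmt3b-/- embryos. The ratio was thus lower in each Dnmt3b-/- embryo than in every WT embryo, and its spread within a genotype was small (0.659 ± 0.031 against 0.429 ± 0.028, SD, n = 3 each, exact two-sided permutation test p = 0.1, the smallest possible). This pair was singled out after its values were seen. The exonic GC content is 53.9% for Foxc1 and 62.0% for Foxc2. After the GC correction Foxc1 had a log2 fold change of 0.79, and the distance between both genes shrank from 0.62 to 0.19 on the log2 scale.

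Meox1 and Meox2 encode homeobox proteins that are needed together for the somite to divide into its compartments. Meox1 lay at 2753, 1896 and 2802 normalized counts in WT embryos and at 2476, 2836 and 2390 in Dnmt3b-/- embryos. The difference was the smallest of all the regulators tested, with a log2 fold change of 0.05 (95% interval -0.30 to 0.39, adjusted p = 0.833, edgeR), a fold of 0.812 to 1.31. Its sign changed under total-count scaling (-0.03), without WT embryo 2 (-0.11) and without Dnmt3b-/- embryo 2 (-0.03). Meox2 lay at 214, 51.7 and 185 normalized counts in WT embryos and at 222, 281 and 224 in Dnmt3b-/- embryos. All Dnmt3b-/- embryos exceeded all WT embryos, as did 25.3% of all genes tested, while 26.5% lay below without overlap. WT embryo 1 was only slightly lower than Dnmt3b-/- embryo 1, and most of the difference came from WT embryo 2. The log2 fold change of 0.68 (95% interval -0.33 to 1.70, adjusted p = 0.263, edgeR) fell to 0.28 without that embryo.

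The balance of both Meox genes set WT embryo 2 apart as well. Meox1 exceeded Meox2 by 39.2 times in FPKM in WT embryo 2, by 13.8 and 16.2 times in WT embryos 1 and 3, and by 11.9, 10.8 and 11.4 times in the Dnmt3b-/- embryos. The ratio was lower in each Dnmt3b-/- embryo than in each WT embryo (exact two-sided permutation test p = 0.1, the smallest possible).

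**Figure D4:**
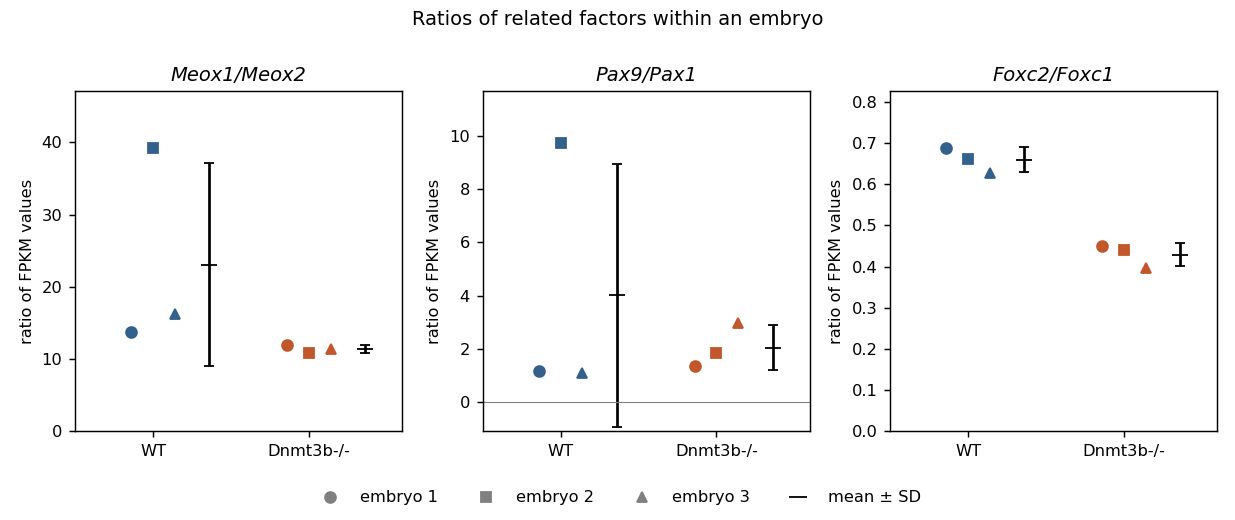
Ratio of FPKM values of related factors within each embryo (y axis; x axis, genotype; one symbol per embryo, bars for the mean ± SD of 3 embryos). Foxc2 over Foxc1 lies between 0.627 and 0.688 in WT and between 0.398 and 0.450 in Dnmt3b-/- embryos, whereas WT embryo 2 has the highest value of the other ratios. Pax9 over Pax1 also varies among Dnmt3b-/- embryos, from 1.33 to 2.96.

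For the 4 regulators with a mean of at least 100 counts, the genes most alike were sought among 11869 genes as those with the highest Pearson r of log2(normalized count + 1) over the 6 embryos. These values are descriptive, since the embryos span both genotypes and include WT embryo 2. Meox1 was followed by Actn2, Nkx2-6 and Ubl3 (r = 0.985, 0.985 and 0.984), and Meox2 by Igfbp3, Sostdc1 and Tfap2b (r = 0.995, 0.994 and 0.993). Foxc2 was followed by Slc38a2, Dcaf10 and Med12l (r = 0.966, 0.957 and 0.954), and Pax9 by Tnfrsf19, Etf1 and Epha4 (r = 0.996, 0.993 and 0.987). No regulator was among the closest genes of another. Between the regulators r was 0.875 for Meox1 and Meox2 and 0.65 for Foxc2 and Meox1, and it was -0.23 to -0.54 for Pax9 with Foxc2, Meox1 and Meox2.

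Genes upstream and downstream of the regulators were taken from 5 lists of 66 genes, of which 58 were tested. Of these, 10 rose and 4 fell in Dnmt3b-/- embryos, 17.2% and 6.9% of those tested beside 17.6% and 18.1% of all genes. After the correction for GC content and length 12 were higher and 0 lower, beside 12.5% and 10.8% of all genes. When WT embryo 2 was left out 12 were higher and 9 lower, beside 17.0% and 17.6% of all genes.

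In the dermomyotome, where Myf5 and Myod1 are activated, 3 of 12 genes tested rose and 0 fell (median log2 fold change 0.29). Eya1, a cofactor of homeobox factors of the sine oculis family, rose from 1001 ± 207 in WT to 1669 ± 279 in Dnmt3b-/- embryos (normalized counts ± SD, n = 3, log2 fold change 0.74, adjusted p = 0.0138, edgeR). Six4, a factor of that family upstream of Myf5, rose by a log2 fold change of 0.33, and Sim1, a marker of the lateral dermomyotome, by 0.55 (adjusted p = 0.0162 and 0.0231, edgeR). The latter 2 calls were lost after the GC correction (adjusted p = 0.173 and 0.56, edgeR), that of Six4 also without Dnmt3b-/- embryo 2 (0.0574) and that of Sim1 without WT embryo 1 or Dnmt3b-/- embryo 3 (up to 0.0857). Pax3, which acts upstream of Myod1, had a log2 fold change of 0.40 and did not pass (adjusted p = 0.0606, edgeR). It passed with DESeq2 (adjusted p = 0.0193), but not with limma (adjusted p = 0.0551) or after the GC correction (adjusted p = 0.126, edgeR). Among 8 genes of somite formation and polarity, 2 rose and 0 fell (median 0.08). They were Foxc1 and Tcf15, the paraxis gene that keeps somites epithelial, which rose from 340 ± 51 to 750 ± 228 normalized counts (log2 fold change 1.14, adjusted p = 0.00601, edgeR). Epha4, the most abundant of this list, had a log2 fold change of 0.08 (adjusted p = 0.579, edgeR). Eya1, Foxc1 and Tcf15 stayed called without each embryo in turn and after the GC correction.

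Of 10 genes tested that act after Pax1 and Pax9, or later in the skeleton, 1 rose and 1 fell (median 0.17). Sox9, the master factor of cartilage, rose (log2 fold change 0.64, adjusted p = 0.0145, edgeR), whereas its target Col2a1, which encodes the collagen of cartilage and is also made by the notochord, fell (-0.68, adjusted p = 0.00768). The fall of Col2a1, whose exonic GC content is 62.3%, was absent after the GC correction (log2 fold change 0.04). Twist1, the most abundant gene of this list by its mean over both genotypes, had a log2 fold change of 0.37 and did not pass (adjusted p = 0.0662, edgeR). It passed after the GC correction (log2 fold change 0.92, adjusted p = 0.00268, edgeR) and with DESeq2 (adjusted p = 0.0193), but not with limma (adjusted p = 0.0567).

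Of 13 genes of muscle differentiation tested, 3 rose and 0 fell, with a median of -0.18. Mef2a and Mef2c, partners of the myogenic factors that also act in heart, rose by log2 fold changes of 0.68 and 0.53 (adjusted p = 0.00092 and 0.002, edgeR), but Mef2c did not pass after the GC correction (adjusted p = 0.0873). Myh3, the embryonic myosin heavy chain, lay at 10.3, 21.8 and 5.31 normalized counts in WT and at 36.1, 33.8 and 60.1 in Dnmt3b-/- embryos, and its call (log2 fold change 1.82, adjusted p = 0.0411, edgeR) held in only 1 of 6 fits with an embryo removed. Actc1, Tnni1 and Acta1, the most abundant genes of this list and expressed in the heart, had log2 fold changes of -0.23, -0.71 and -0.49 and did not pass with edgeR. Tnni1 passed with DESeq2 (adjusted p = 0.0175), but not with limma (adjusted p = 0.0798). Without WT embryo 2 Actc1, Tnni1 and Acta1 were called lower, at -0.53, -0.92 and -0.84 (adjusted p = 0.0267, 0.0181 and 0.00621, edgeR). After the GC correction they were at -0.14, -0.31 and -0.06 and did not pass. Of the 5 heart markers, 1 rose and 2 fell (1 and 3 without WT embryo 2), and their sum was 288 to 466 FPKM in WT and 237 to 379 FPKM in Dnmt3b-/- embryos. Without WT embryo 2, 3 muscle genes were higher and 5 lower, and the part of the heart in these values was not tested.

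Of 15 signals that pattern the somite and their mediators, 1 rose and 3 fell (median 0.02). Shh, the ligand from notochord and floor plate that induces Pax1, rose from 414 ± 100 to 735 ± 78 normalized counts (log2 fold change 0.83, adjusted p = 0.0118, edgeR). Gli1, a direct target of hedgehog signalling, fell (-0.64, adjusted p = 0.00678), and Ptch1, another such target, had a log2 fold change of -0.26 and did not pass. Wnt3a of the tailbud and dorsal neural tube and Wnt6 of the surface ectoderm fell as well (-1.04 and -0.98, adjusted p = 0.00907 and 0.00184, edgeR). After the GC correction Shh stayed called (log2 fold change 0.97), whereas Gli1, Wnt3a and Wnt6 were at -0.10, -0.60 and -0.33 and did not pass.

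**Figure D5:**
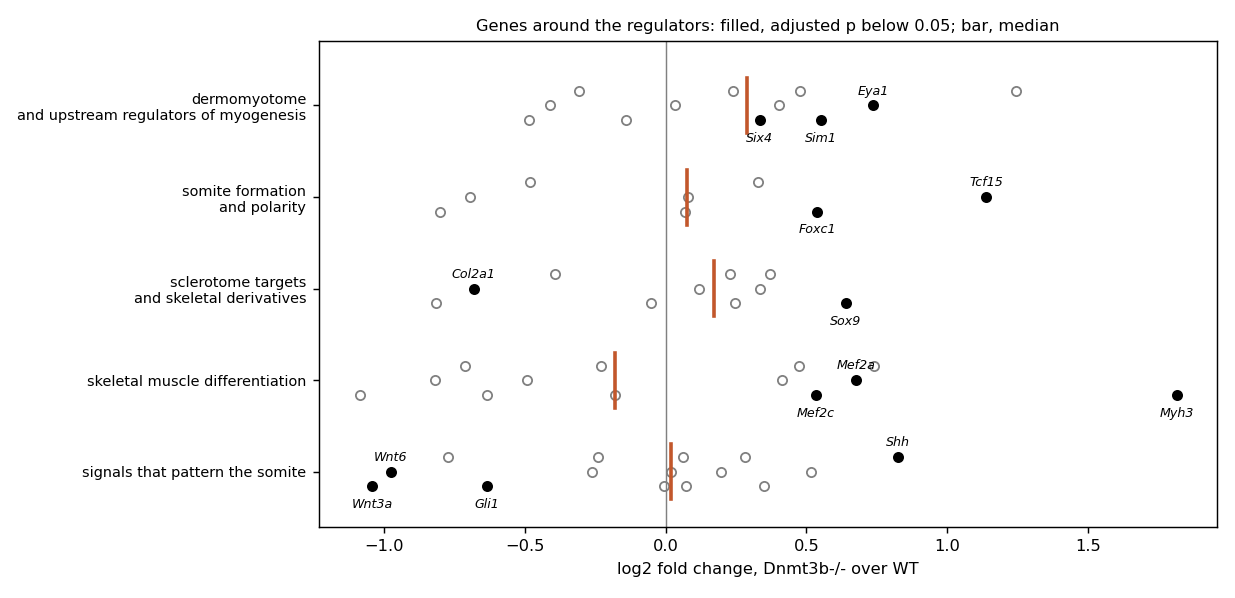
Log2 fold change of 58 genes around the regulators (x axis, Dnmt3b-/- over WT; y axis, list; one circle per gene, filled where the adjusted p was below 0.05, vertical bar for the median of a list). The medians lie between -0.18 and 0.29, and the named genes with the largest changes are Myh3 (1.82), Tcf15 (1.14) and Wnt3a (-1.04).

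Of the markers of tissues beside the somites, the presomitic mesoderm had 0 of 6 genes higher and 1 lower, and the neural tube 2 of 5 higher and 2 lower. The endothelium had 0 of 5 higher and 1 lower, primitive blood 0 of 5 in either direction, the definitive endoderm and pharynx 1 of 5 higher and yolk sac endoderm 1 of 5 lower. Without WT embryo 2 the yolk sac call was lost, primitive blood had 1 gene lower and the endothelium 2, and the presomitic mesoderm had 1 higher and 1 lower. Of the late Hox genes tested, 1 of 9 was higher (Hoxa9, log2 fold change 0.83, adjusted p = 0.0303, edgeR) and 0 lower. The call of Hoxa9 was lost without Dnmt3b-/- embryo 2 or 3 (adjusted p up to 0.0896, edgeR), after correction for GC content and length (0.0501) and with total counts (0.0502). Of the decidua and trophoblast genes, Prl8a2, Prl3c1, Prl2c2 and Tpbpa were at 0 in all 6 embryos, and Dcn, which fibroblasts also express, was at 2.01 ± 0.27 FPKM in WT and 2.32 ± 0.73 FPKM in Dnmt3b-/- embryos (SD, n = 3 each).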

How the data were processed

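RNA was measured in 3 WT and 3 Dnmt3b-/- E8.5 embryos, as whole embryos. Per the labels and the methods of the study, RNA depleted of ribosomal RNA was sequenced as stranded paired reads, aligned to mm10 with TopHat2 2.0.12 and counted in RefSeq exons with HTSeq 0.6.0. The RefSeq release and the strand setting are not given in the sources used here. The values are the raw counts per gene that the authors deposited. The 6 columns of counts normalized by the authors with DESeq2 1.4.5 and the 2 columns of their comparison (a fold change and an adjusted p-value) were not used.

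The raw counts were fitted with edgeR 4.0.16 (TMM, quasi-likelihood) in R 4.3.3 above a mean of 10 counts per gene, with Benjamini-Hochberg adjustment over 15114 genes and calls at an adjusted p below 0.05. DESeq2 1.42.0 and limma 3.58.1 with trend on log2(normalized count + 1) served as alternatives. Other alternatives were filters, scalings, a replicate block, each embryo left out, a spline with 5 degrees of freedom on GC content and on length, and for calls a fold change above 2. Fits without a filter for the low members under other settings, and list counts without WT embryo 2 or with the GC correction, were chosen after seeing the data. Intervals are 95% intervals of the fit. FPKM values combine those counts with RefSeq union exon lengths, and 99.3% of the genes matched that annotation. Of the members, 8 shared no stretch of 75 bases with another gene. The fits were tested on simulated data.

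The members and lists were chosen with earlier results of these data known. Named genes are the members, Dnmt3b, the 3 most abundant and up to 4 called genes with the largest change in each list around the members, counts for the marker lists, and the 3 genes most alike, and some genes under this rule are not reported here. Sequences are from RefSeq, and 6 of the 10 members had a promoter there. P-values rest on littermate embryos with 1 library each.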

Additional observations from a re-analysis of the deposited data

How the results depend on the processing

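The count of 0 regulators higher in Dnmt3b-/- embryos became 1 with every gene with a count included (Myog), without WT embryo 3 (Myf5) and with the correction for GC content and length (Foxc2), so that with each embryo left out in turn it was 0 to 1. Over all genes, 2491 of 19375, 2103 of 15075 and 1878 of 15068 were higher in the fits that called Myog, Myf5 and Foxc2, respectively. The count of lower regulators was 0 throughout, and a fold change above 2 left 0 in each direction. The median log2 fold change of the regulators was 0.08 to 0.40 with each embryo left out and 0.49 after the GC correction. The sign of Meox1 turned to -0.032 with total counts, -0.11 without WT embryo 2 and -0.030 without Dnmt3b-/- embryo 2, within a range of -0.11 to 0.14 over the fits without 1 embryo. That of Foxc2 turned to 0.060 without WT embryo 1 (range -0.19 to 0.060) and 0.60 after the GC correction, and that of Pax1 to -0.26 without WT embryo 2 (range -0.26 to 0.57). Nkx3-2, which did not pass the filter, had a log2 fold change of -0.37 without a filter, 0.11 without WT embryo 3, 0.19 without Dnmt3b-/- embryo 2 and 0.50 after the GC correction. The cause of these turns was not tested. Myf5, Pax9 and Meox2 kept a positive sign under all 14 alternatives, from 0.48 to 1.41 for Myf5, 0.10 to 0.52 for Pax9 and 0.28 to 1.02 for Meox2.

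The deviations of embryos with the same number in both genotypes correlated at -0.05, -0.15 and -0.01. The study describes the embryos as littermates, but whether those with the same number came from the same litter or batch is not given in the sources used here. These correlations cannot decide it, since the deviations also hold the differences between the embryos of each genotype. With the number as a replicate block, 0 regulators were higher and 0 lower and the median was 0.36. Without a filter the block gave Myog an adjusted p of 0.145, and 2172 genes were higher and 2239 lower over the whole table in place of 2654 and 2741. With the GC correction 1878 genes were higher and 1625 lower, and without Dnmt3b-/- embryo 2, 1795 and 1791. Members above 1 FPKM in WT embryos numbered 3 with either exon length. Depth limits Myog, Myf6, Myod1 and Nkx3-2, whose 6 embryos held 14 to 43 counts in all.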
